A study of Mus musculus with 6 samples.

Results

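The genes described here are 49 antiviral effector and GTPase genes that interferon induces, chosen by name from the interferon-stimulated genes of the mouse, with the oligoadenylate synthetases, the ISG15 system, interferon regulatory factors, STAT proteins, PARP and TRIM proteins and nucleic acid sensors left out. Of these, 48 were found among the 19255 genes of the deposited table, 41 passed the filter on low values and were tested, 7 were too low to be tested, and the expression of *Slfn5* was not analysed here. The rule names genes and uses no measured value.
RNA was sequenced from 4T1 cells, a mammary carcinoma line of BALB/c mice, in 3 libraries of control cells carrying a control guide RNA (sgCtrl, wild type for *Uba6*) and 3 libraries of *Uba6*-null cells (sgUba6). UBA6 is an E1 enzyme for ubiquitin and for the ubiquitin-like protein FAT10, and the study asked what its loss does to the transcriptome of tumour cells. The null cells were made from Cas9-expressing 4T1 cells by lentiviral delivery of guide RNAs and puromycin selection. The sources used here do not say whether they are a clone or a pool. All cells grew in RPMI with 10% serum, and no interferon or other agent is named for either group.

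Interferons bind receptors at the cell surface, and the kinases JAK1, JAK2 and TYK2 then activate STAT transcription factors. Complexes of these with IRF9 bind a promoter motif, the interferon-stimulated response element (ISRE), while dimers of STAT proteins bind the interferon γ-activated site (GAS). The genes switched on in this way include RNA-binding proteins that stall viral translation, enzymes that alter nucleotides or RNA, membrane proteins that stop the entry or release of virions, and large GTPases that attack the vacuoles of intracellular pathogens. Many epithelial and tumour cells keep a low level of these transcripts without added interferon.

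Values are FPKM, fragments scaled to exon length and to the mapped total of the library, and fold changes are sgUba6 minus sgCtrl on log2(FPKM + 0.5) from limma, which understates the change of low genes. A gene was called higher or lower at a Benjamini-Hochberg adjusted p under 0.05 over all 12190 genes tested. *Uba6* itself measured 16.4, 16.4 and 17.02 FPKM in sgCtrl and 10.9, 12.1 and 12.03 FPKM in sgUba6 libraries. Its log2 fold change was -0.49 (SE 0.06, adjusted p = 0.000601 from limma), so its mRNA was lower but not lost. The paper judged the knockout by western blot of UBA6 protein, which these RNA values do not measure. FPKM summed to between 352535 and 362762 per library, and log2 values correlated at 0.991 to 0.992 within groups and at 0.961 to 0.963 between groups across genes. Read counts were not used here, so the depth behind each value is unknown and counting error could not be given. The labels do not say whether the libraries of a group came from separate cultures, and the p-values reflect only the spread from library to library, which may be technical. Of the epithelial markers *Epcam*, keratins, *Cdh1* and claudins, 9 of 10 listed were measured and summed to between 2454 and 2543 FPKM in every library, and of these 3 were called higher and 2 lower in sgUba6 cells, against 24.7% higher and 22.7% lower of all genes tested.

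Across the gene set, most transcripts of antiviral effectors were more abundant in sgUba6 cells. Of the 41 genes tested, 26 were higher (63.4%, where 24.7% of all genes tested were higher), 2 were lower (4.88%, where 22.7% of all genes were lower) and 13 did not pass the test. The median log2 fold change was 0.53, with quartiles of 0.02 and 0.86, where all genes tested had a median of 0.01 with quartiles of -0.21 and 0.25. A change of at least 2-fold upward on this scale was found for 10 of the 41 genes (24.4%, against 3.70% of all genes), namely *Rsad2*, *Xaf1*, *Rtp4*, *Ifi47*, *Ifit3*, *Ifi44*, *Ifit1*, *Gbp2*, *Slfn2* and *Gbp3*. The 3 sgUba6 values did not overlap the 3 sgCtrl values for 28 of the 41 (68.3%, against 57.6% of all genes tested). These were the same 28 that were called in either direction, where 47.4% of all genes were called.
*Rsad2* and *Ifi44* passed the filter through their sgUba6 libraries alone and therefore had to differ, and *Ifit3* passed with 1 sgCtrl library above 0.5 FPKM. Among the 38 genes with at least 0.5 FPKM in every sgCtrl library, 23 were higher and 2 lower (60.5% higher, against 23.3% of the 11514 genes that met the same condition), and the median log2 fold change was 0.47. Of these 38, 7 were at least 2-fold higher (18.4%), against 252 of the 11514 genes (2.19%). The GTPases of the guanylate-binding (GBP) and immunity-related (IRG) families stood at the uniform end, with 9 of 9 tested genes higher. The membrane proteins stood at the other end, with 2 of 7 tested genes higher.

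**Figure D1:**
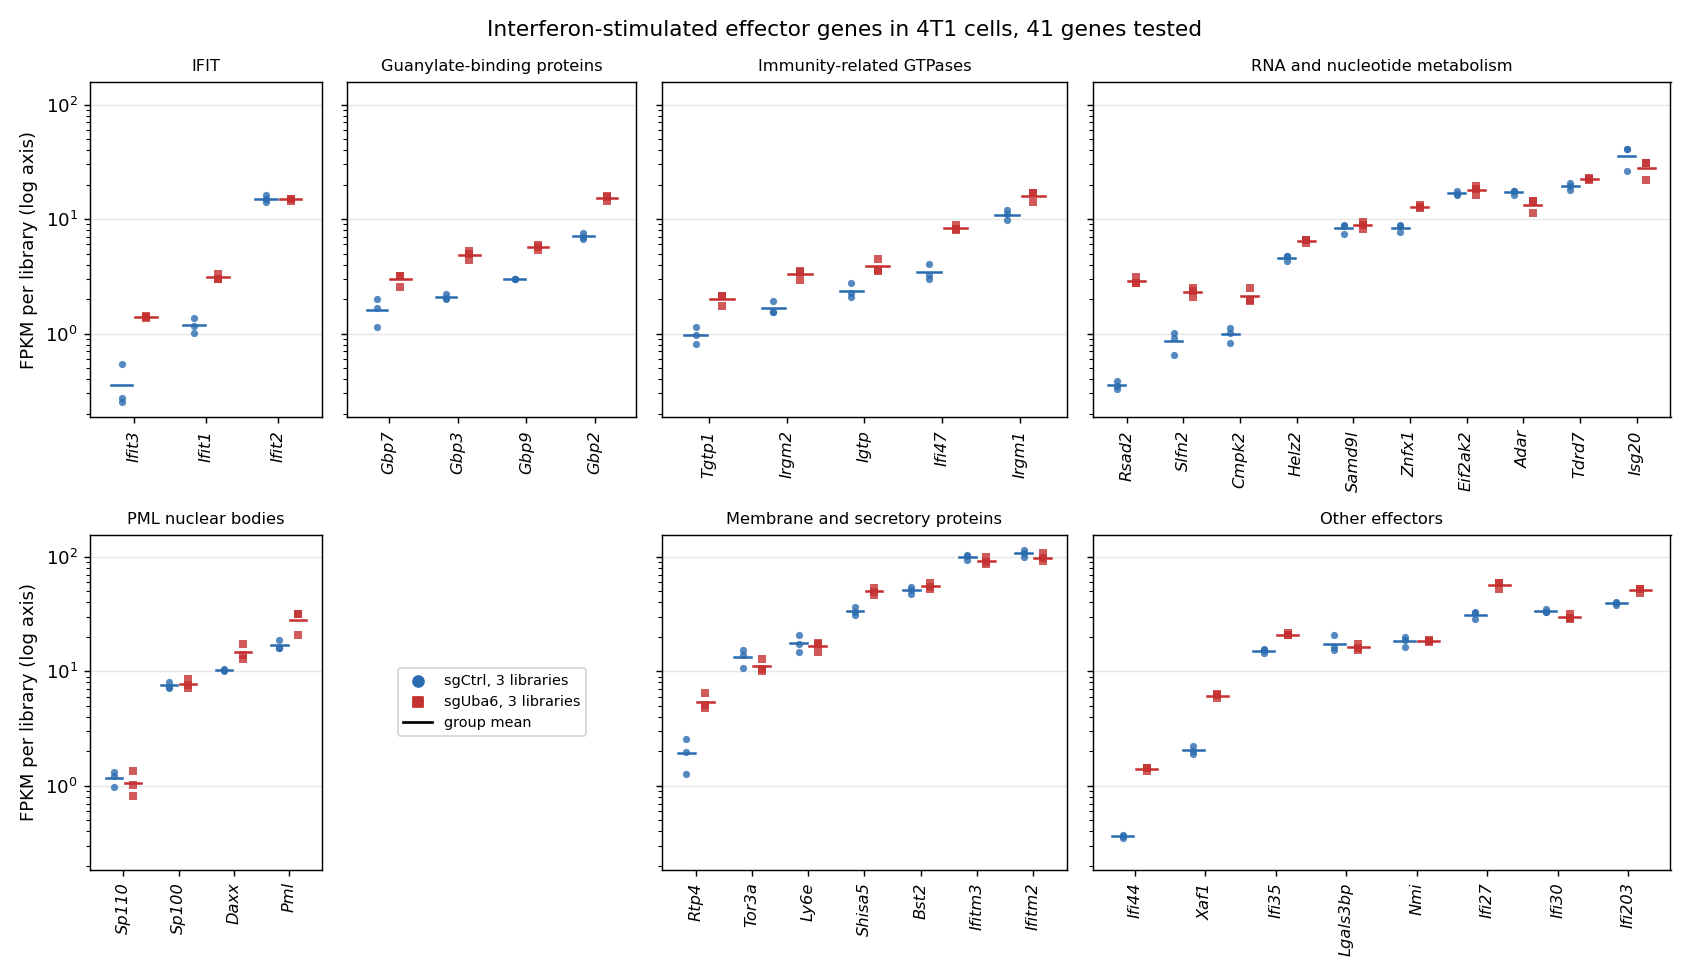
FPKM on a log axis of the 41 tested genes, grouped by role; each blue circle is an sgCtrl library and each red square an sgUba6 library (3 per group), and horizontal lines are group means. All 4 GBP genes and all 5 IRG genes have sgUba6 values above every sgCtrl value, while the groups overlap for *Ifit2*, *Ifitm2*, *Ifitm3* and *Bst2*.

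Promoters of 3 genes with large changes and of *Bst2* are shown so that the ISRE core can be read beside the values. The sequences are those of RefSeq on GRCm38.p6, 5′ to 3′ on the strand of the gene, and end at the base before the RefSeq transcript start. Capitals mark matches to the ISRE core (GAAANNGAAA on either strand) and to GAS (TTCNNNGAA). *Rsad2*, *Ifit3* and *Ifit1* rose by at least 2-fold, and *Bst2* is a gene with the motif that did not pass the test.
Rsad2, chr12:26456453-26456612, minus strand: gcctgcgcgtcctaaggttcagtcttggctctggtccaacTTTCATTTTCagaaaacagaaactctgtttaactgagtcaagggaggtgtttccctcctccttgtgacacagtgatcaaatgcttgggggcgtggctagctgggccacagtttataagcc
Ifit3, chr19:34583369-34583528, plus strand: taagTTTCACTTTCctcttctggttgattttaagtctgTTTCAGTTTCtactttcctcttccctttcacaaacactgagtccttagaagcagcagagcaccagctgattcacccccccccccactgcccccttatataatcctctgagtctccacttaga
Ifit1, chr19:34640729-34640888, plus strand: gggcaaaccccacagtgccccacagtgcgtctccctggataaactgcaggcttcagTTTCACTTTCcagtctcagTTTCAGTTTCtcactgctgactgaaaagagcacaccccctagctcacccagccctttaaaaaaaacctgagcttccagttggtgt
Bst2, chr8:71537473-71537632, minus strand: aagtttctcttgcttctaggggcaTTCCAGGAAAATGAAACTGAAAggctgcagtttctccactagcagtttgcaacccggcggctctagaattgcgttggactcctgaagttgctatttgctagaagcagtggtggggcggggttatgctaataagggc
The *Rsad2* sequence holds 1 ISRE core, and those of *Ifit3* and *Ifit1* hold 2 each. The capitals of *Bst2* are 1 GAS match followed by 2 ISRE cores, where the GAS match overlaps the first core.

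For 7 of the 9 tested GBP and IRG genes, 50 bases around the first ISRE core are given to compare them within and between the families. *Ifi47* had a RefSeq window but no match to the core, and *Gbp9* was not matched to a window.
Gbp2, chr3:142620579-142620628, plus strand: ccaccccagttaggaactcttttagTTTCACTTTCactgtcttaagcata
Gbp3, chr3:142559974-142560023, plus strand: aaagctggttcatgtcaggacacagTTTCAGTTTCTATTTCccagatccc
Gbp7, chr3:142530258-142530307, plus strand: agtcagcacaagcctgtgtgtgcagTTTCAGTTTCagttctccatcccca
Igtp, chr11:58199497-58199546, plus strand: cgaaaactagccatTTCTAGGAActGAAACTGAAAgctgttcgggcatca
Irgm2, chr11:58214888-58214937, plus strand: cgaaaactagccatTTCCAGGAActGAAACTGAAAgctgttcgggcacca
Tgtp1, chr11:48992299-48992348, minus strand: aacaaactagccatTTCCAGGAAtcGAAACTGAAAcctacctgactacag
Irgm1, chr11:48871426-48871475, minus strand: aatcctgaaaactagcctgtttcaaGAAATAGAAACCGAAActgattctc
In *Igtp*, *Irgm2* and *Tgtp1* the first base of a GAS match lies 11 bases before the first base of the ISRE core, and in *Gbp3* and *Irgm1* the capitals are 2 overlapping ISRE cores. GENCODE starts some transcripts before the RefSeq start, so the *Irgm1* stretch lies within an exon of a non-coding *Irgm1* transcript, and the *Gbp2* and *Ifit1* sequences end 27 and 18 bases into an exon of the gene itself. In the *Ifit1* sequence, 15 bases lie in an exon of the protein-coding gene *Ifit1bl2*.

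The IFIT proteins bind RNA and hinder its translation, and their genes lie next to each other on chromosome 19. *Ifit1*, whose product binds RNA that lacks the methylation of host caps, was at 1.36, 1.17 and 1.01 FPKM in sgCtrl and at 3.01, 2.99 and 3.33 FPKM in sgUba6 cells. Every sgUba6 library was above every sgCtrl library, with a log2 fold change of 1.11 (SE 0.11, adjusted p = 0.000244 from limma). *Ifit3*, whose product stabilises IFIT1 in human cells, was at 0.274, 0.251 and 0.545 FPKM in sgCtrl and at 1.39, 1.44 and 1.36 FPKM in sgUba6 cells.
The *Ifit3* change was 1.16 (SE 0.15, adjusted p = 0.000852) and the groups did not overlap, although the control libraries spread over a wider range than the sgUba6 libraries. Its near copy *Ifit3b*, which shares 97.8% identity with it over 1700 bases, was too low to be tested and was at 0.154, 0.0822 and 0.0997 FPKM in sgCtrl and at 0.730, 0.510 and 0.377 FPKM in sgUba6 cells. How reads were divided between the pair is not known, so the split between them is uncertain.
*Ifit2*, the most abundant of the family, differed from its neighbours. It was at 15.1, 14.1 and 16.2 FPKM in sgCtrl and at 15.1, 14.4 and 15.02 FPKM in sgUba6 cells, so the groups overlapped. Its log2 fold change was -0.02, with a 95% interval from -0.17 to 0.12 (adjusted p = 0.778), and it turned to 0.02 without sgCtrl library 3. The upper end of that interval lies below the change of either *Ifit1* or *Ifit3*. No ISRE core was found in the RefSeq window of *Ifit2*, which held a GAS match at position -241.

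*Mx1* and *Mx2* encode dynamin-like GTPases that block viral replication, and *Mx1* is defective in most inbred mouse strains. Neither reached the level required for a test. *Mx1* was at 0.0166, 0 and 0 FPKM in sgCtrl and at 0.0177, 0.114 and 0.172 FPKM in sgUba6 cells. *Mx2* was at 0.316, 0.374 and 0.0543 FPKM in sgCtrl and at 0.743, 0.458 and 0.310 FPKM in sgUba6 cells, and its groups overlapped. The pair shares 95.3% identity over 843 bases.

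The GBP family of large GTPases coats the vacuoles of intracellular microbes. *Gbp2*, the most abundant of the 4 listed GBP genes, was at 6.73, 7.49 and 6.95 FPKM in sgCtrl and at 15.96, 14.5 and 15.7 FPKM in sgUba6 cells. The groups were well apart, with a log2 fold change of 1.07 (SE 0.07, adjusted p = 3.74e-05) and a ratio of means of 2.18. *Gbp3* was at 2.22, 1.99 and 2.05 FPKM in sgCtrl and at 5.25, 4.93 and 4.40 FPKM in sgUba6 cells, for a log2 fold change of 1.05 (SE 0.09, adjusted p = 0.000143).
*Gbp9* rose from a mean of 2.99 ± 0.0256 to 5.67 ± 0.258 FPKM (SD, n = 3 libraries per group), a log2 fold change of 0.82. *Gbp7* rose from 1.60 ± 0.433 to 2.98 ± 0.370 FPKM (SD, n = 3), a change of 0.74 with the largest adjusted p of the family (0.0107 from limma). *Gbp2*, *Gbp3* and *Gbp7* are neighbours on chromosome 3 and *Gbp9* lies on chromosome 5. The relatives *Gbp2b* and *Gbp4*, from a list of family members written beside the set, had log2 fold changes of 1.12 and 0.77.

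The IRG proteins are interferon-inducible GTPases of which some sit on host membranes as regulators (the products of *Irgm1*, *Irgm2* and *Igtp*) and others load onto pathogen vacuoles as effectors (those of *Tgtp1*, *Ifi47* and *Iigp1*). *Ifi47* was at 3.27, 2.998 and 4.07 FPKM in sgCtrl and at 7.99, 8.27 and 8.92 FPKM in sgUba6 cells. It had the largest change of the 5 tested IRG genes, 1.18 on the log2 scale (SE 0.11, adjusted p = 0.000218). *Tgtp1* rose from 0.972 ± 0.165 to 1.997 ± 0.221 FPKM (SD, n = 3), a change of 0.77.
*Tgtp1* shares 99.8% identity over 2811 bases with *Tgtp2*, which stood at means of 0.490 and 0.540 FPKM, so the division of reads between these copies is uncertain. Among the regulators, *Irgm2* changed by 0.81, *Igtp* by 0.60 and *Irgm1* by 0.53 on the log2 scale. *Irgm1* was the most abundant of the family, at 10.9 ± 1.11 FPKM in sgCtrl and 16.005 ± 1.62 FPKM in sgUba6 cells (SD, n = 3). *Igtp* and *Irgm2* overlap over 162 exonic bases on the same strand.
*Iigp1* was too low to be tested, at 0.128, 0.0723 and 0 FPKM in sgCtrl and at 0.144, 0.207 and 0.168 FPKM in sgUba6 cells, where the groups did not overlap. *Gvin1*, which encodes a very large inducible GTPase, was at 0.0975, 0.0557 and 0.0636 FPKM in sgCtrl and at 0.111, 0.0760 and 0.0799 FPKM in sgUba6 cells. *Gm4070*, which is identical to *Gvin1* over 9005 bases, stood at means of 0.491 and 1.76 FPKM, and the *Gvin1* values depend on how the reads of the copies were divided.

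**Figure D2:**
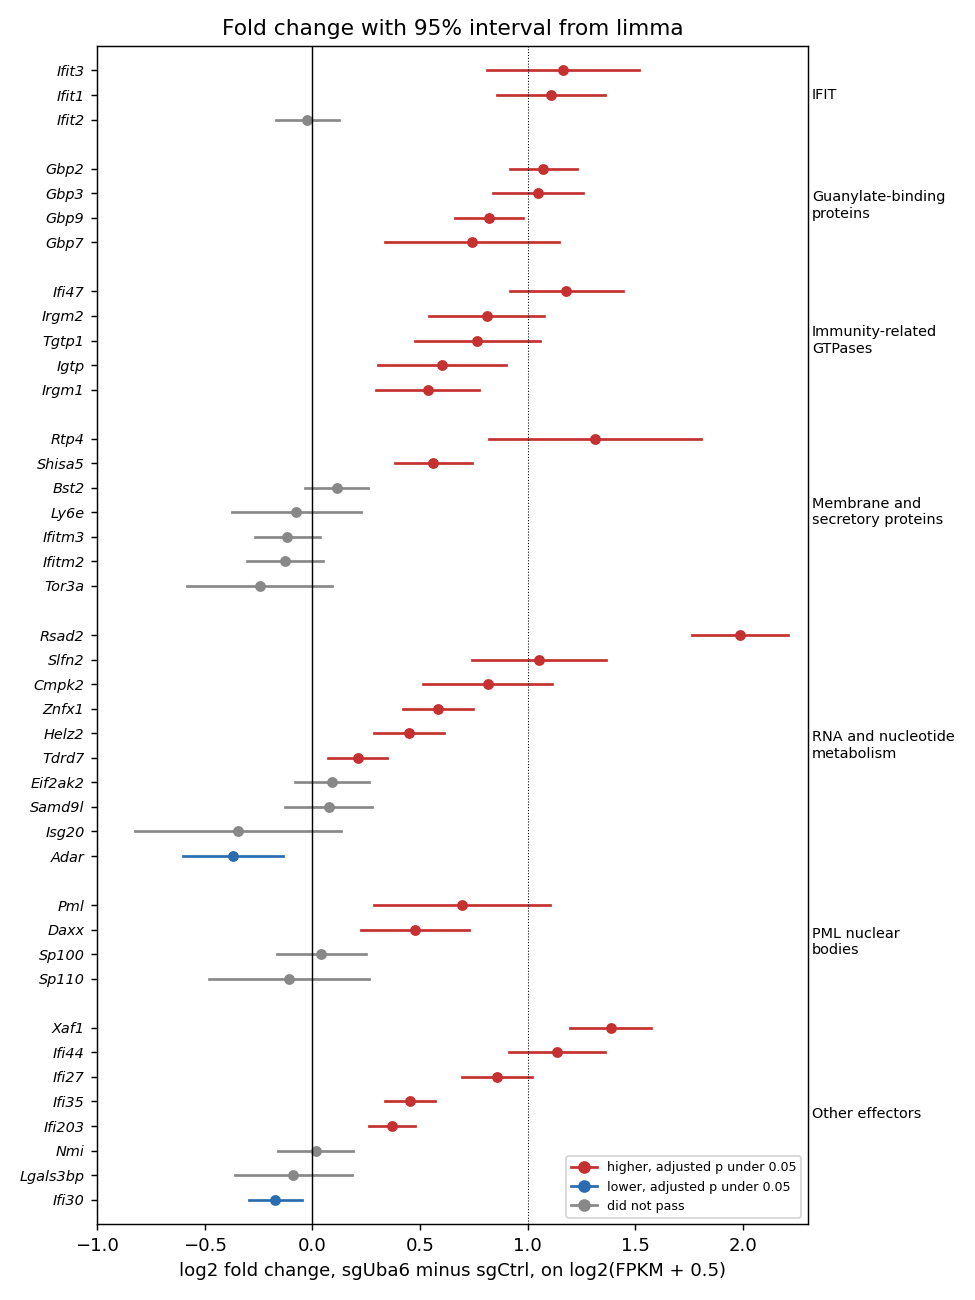
Log2 fold change (sgUba6 minus sgCtrl) of each tested gene with its 95% interval from limma on log2(FPKM + 0.5), grouped by role; red marks an adjusted p under 0.05 and higher, blue lower, grey not called, and the dotted line a 2-fold change. *Rsad2* lies farthest right at 1.98, the GBP and IRG genes lie between 0.53 and 1.18, and 5 of 7 membrane genes have intervals that include 0.

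Among the enzymes and RNA-binding proteins, *Rsad2* (ENSMUSG00000020641, chr12:26442746-26456452) had the largest change of the set. Its product viperin converts CTP into a chain terminator of viral RNA polymerases. *Rsad2* was at 0.325, 0.383 and 0.3505 FPKM in sgCtrl and at 2.75, 3.11 and 2.77 FPKM in sgUba6 cells. The means differed by 8.16-fold, and the log2 fold change was 1.98 (SE 0.09, adjusted p = 1.64e-05 from limma). The gene passed the filter through its sgUba6 libraries alone, so it had to differ. *Cmpk2*, a mitochondrial nucleotide kinase gene beside *Rsad2* on chromosome 12, rose from 0.992 ± 0.146 to 2.12 ± 0.320 FPKM (SD, n = 3), a change of 0.81.
*Slfn2*, a Schlafen gene that keeps T cells quiescent, was at 1.02, 0.656 and 0.911 FPKM in sgCtrl and at 2.36, 2.08 and 2.50 FPKM in sgUba6 cells. Its groups did not overlap, and its log2 fold change was 1.05 (SE 0.13, adjusted p = 0.000734). *Znfx1*, which encodes a helicase that senses viral RNA at mitochondria, changed by 0.58, and the helicase gene *Helz2* by 0.45.
*Tdrd7*, a tudor domain gene, was at 19.3, 18.1 and 20.6 FPKM in sgCtrl and at 22.4, 23.1 and 21.8 FPKM in sgUba6 cells. This small rise (0.21, SE 0.06, adjusted p = 0.0237) was not called when the first or second library of either group was left out, where the adjusted p lay between 0.0586 and 0.0726. *Eif2ak2*, which encodes the kinase PKR that halts translation on double-stranded RNA, had means of 16.9 and 18.0 FPKM, and *Samd9l*, a restraint on growth and translation, had means of 8.36 and 8.82 FPKM. Neither passed the test, with 95% intervals of the log2 fold change from -0.08 to 0.26 and from -0.13 to 0.28.
*Adar*, whose product deaminates adenosine to inosine in double-stranded RNA, was lower in sgUba6 cells. It was at 17.7, 17.4 and 16.3 FPKM in sgCtrl and at 14.3, 14.3 and 11.2 FPKM in sgUba6 cells, for a log2 fold change of -0.37 (SE 0.10, adjusted p = 0.0198). The groups did not overlap, but the call was lost without the first or the second sgCtrl library (adjusted p of 0.0594 and 0.0561). *Adar* shares 1365 exonic bases with *Chrnb2* on the opposite strand, and *Chrnb2* was at or below 0.147 FPKM in every library.
*Isg20*, an exonuclease gene, was at 40.9, 26.3 and 40.6 FPKM in sgCtrl and at 30.8, 30.8 and 22.1 FPKM in sgUba6 cells. The groups overlapped because the second sgCtrl library was low. Its log2 fold change was -0.35 (adjusted p = 0.2), and it was -0.55 (adjusted p = 0.0302) without that library.

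The membrane proteins of the set included the most abundant transcripts, and most of these did not pass the test. *Ifitm2* and *Ifitm3* encode proteins that block the fusion of viruses with endosomes. *Ifitm2* was at 108.1, 115.2 and 100.2 FPKM in sgCtrl and at 107.2, 97.6 and 91.2 FPKM in sgUba6 cells, for a log2 fold change of -0.13 with a 95% interval from -0.30 to 0.05. *Ifitm3* was at 102.9, 102.6 and 93.8 FPKM in sgCtrl and at 99.4, 86.0 and 90.9 FPKM in sgUba6 cells, a change of -0.12 with an interval from -0.27 to 0.04. Their groups overlapped, and the intervals leave out a rise of the size seen in the GBP or IRG genes.
*Ifitm1* was too low to be tested, at 0.109, 0.0199 and 0 FPKM in sgCtrl and at 0.0408, 0.0748 and 0.0648 FPKM in sgUba6 cells. *Bst2*, which encodes tetherin, the protein that holds budding virions at the cell surface, was at 54.2, 51.3 and 47.6 FPKM in sgCtrl and at 58.5, 52.8 and 54.1 FPKM in sgUba6 cells. Its change was 0.11 (adjusted p = 0.181, interval from -0.04 to 0.26). *Ly6e*, a surface protein gene that limits coronavirus fusion, was at 14.7, 20.6 and 17.3 FPKM in sgCtrl and at 17.3, 14.8 and 17.6 FPKM in sgUba6 cells, and its sign changed when the second library of either group was left out.
*Tor3a*, a torsin ATPase gene of the endoplasmic reticulum, was at 14.0, 15.3 and 10.8 FPKM in sgCtrl and at 10.1, 12.8 and 10.5 FPKM in sgUba6 cells. It did not pass the test (-0.25, adjusted p = 0.199) but did so without sgCtrl library 3 (-0.39, adjusted p = 0.0384).
The exceptions were *Rtp4* and *Shisa5*. *Rtp4*, a Golgi chaperone gene for receptors, was at 2.57, 1.27 and 1.95 FPKM in sgCtrl and at 5.13, 4.77 and 6.41 FPKM in sgUba6 cells. Its log2 fold change was 1.31 (SE 0.21, adjusted p = 0.00218), with the widest interval among the genes that rose by at least 2-fold. *Shisa5*, which encodes a protein of the endoplasmic reticulum linked to apoptosis, was at 36.8, 32.9 and 31.3 FPKM in sgCtrl and at 53.5, 49.3 and 46.8 FPKM in sgUba6 cells. It rose by 0.56 (SE 0.08, adjusted p = 0.00104) and was the only membrane gene above 5 FPKM in sgCtrl cells that was called.

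PML bodies are nuclear structures built on the PML protein that hold viral genomes silent. *Pml* was at 15.9, 18.9 and 16.04 FPKM in sgCtrl and at 31.9, 20.7 and 31.9 FPKM in sgUba6 cells, and these values are given because the second sgUba6 library stood apart from the others. The groups did not overlap, and the log2 fold change of 0.69 (SE 0.17, adjusted p = 0.0148) became 0.90 (adjusted p = 0.000914) without that library. *Daxx*, a histone chaperone gene of the bodies, rose from 10.3 ± 0.265 to 14.7 ± 2.31 FPKM (SD, n = 3), a change of 0.48.
*Sp100* was at 7.27, 7.20 and 8.14 FPKM in sgCtrl and at 8.62, 7.16 and 7.54 FPKM in sgUba6 cells. Its relative *Sp110* was at 1.33, 0.968 and 1.22 FPKM in sgCtrl and at 1.36, 0.818 and 1.01 FPKM in sgUba6 cells. *Sp100* changed by 0.04 and *Sp110* by -0.11 on the log2 scale without passing the test, and each shares at least 50% of a transcript with another annotated gene.

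The other effectors were also divided. *Xaf1*, which encodes an antagonist of the apoptosis inhibitor XIAP, was at 2.23, 1.91 and 2.003 FPKM in sgCtrl and at 6.34, 5.86 and 6.23 FPKM in sgUba6 cells. The means differed by 3.002-fold with little spread in either group, and the log2 fold change was 1.38 (SE 0.08, adjusted p = 2.89e-05). *Ifi44* was at 0.364, 0.348 and 0.375 FPKM in sgCtrl and at 1.42, 1.43 and 1.34 FPKM in sgUba6 cells. Its change was 1.14 (SE 0.09, adjusted p = 0.000130 from limma), but it passed the filter through its sgUba6 libraries alone and had to differ.
*Ifi27*, a gene for a small membrane protein of mitochondria and the nuclear envelope, combined a high level with a large change. It was at 32.7, 32.1 and 28.8 FPKM in sgCtrl and at 58.8, 52.8 and 59.0 FPKM in sgUba6 cells, for a log2 fold change of 0.86 (SE 0.07, adjusted p = 0.000111). *Ifi203*, a member of the PYHIN family of DNA-binding proteins, was at 39.88, 38.0 and 39.9998 FPKM in sgCtrl and at 48.6, 51.9 and 52.3 FPKM in sgUba6 cells, a change of 0.37. *Ifi203* shares most of a transcript with *Mndal*, which stood at means of 17.1 and 24.1 FPKM.
*Ifi35* rose by 0.45, from 15.2 ± 0.557 to 21.0 ± 0.495 FPKM (SD, n = 3), whereas its binding partner *Nmi* was at 16.4, 18.8 and 19.9 FPKM in sgCtrl and at 18.9, 18.4 and 18.2 FPKM in sgUba6 cells. The *Nmi* change was 0.02, with a 95% interval from -0.16 to 0.19. *Lgals3bp*, a secreted ligand of galectins, was at 15.3, 20.7 and 16.3 FPKM in sgCtrl and at 17.5, 15.9 and 15.3 FPKM in sgUba6 cells, and its groups overlapped.
*Ifi30*, which encodes a lysosomal thiol reductase that prepares antigens, was the second gene called lower. It was at 35.3, 32.8 and 33.3 FPKM in sgCtrl and at 31.5, 29.4 and 28.9 FPKM in sgUba6 cells, a small change of -0.17 (SE 0.05, adjusted p = 0.0311). The call was lost without sgCtrl library 1 or 3 or sgUba6 library 2 or 3, where the adjusted p lay between 0.0559 and 0.0970. *Epsti1* was too low to be tested, at 0.170, 0.0587 and 0 FPKM in sgCtrl and at 0.0641, 0.0296 and 0.0304 FPKM in sgUba6 cells.

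The change differed with the level of the gene in control cells, for which bounds of 5 and 20 FPKM were set after the values were seen. Of 17 tested genes below 5 FPKM in sgCtrl cells, 16 were higher and the exception was *Sp110*, and their median log2 fold change was 1.05. Among all genes below that level, 31.6% of 3640 were higher and the median was 0.15. Of 16 genes from 5 to 20 FPKM, 7 were higher and 1 lower, with a median of 0.08, where 23.8% of all such genes were higher. Of 8 genes at 20 FPKM or more, 3 were higher (*Shisa5*, *Ifi27* and *Ifi203*) and 1 lower, with a median of -0.00, where 19.4% of all such genes were higher. Among the 16 higher genes below 5 FPKM, *Rsad2* and *Ifi44* passed the filter through their sgUba6 libraries alone and had to differ. *Ifit3* passed with 1 sgCtrl library above 0.5 FPKM. The level and the change share the sgCtrl libraries, so these counts are a description and no test was made of them.

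**Figure D3:**
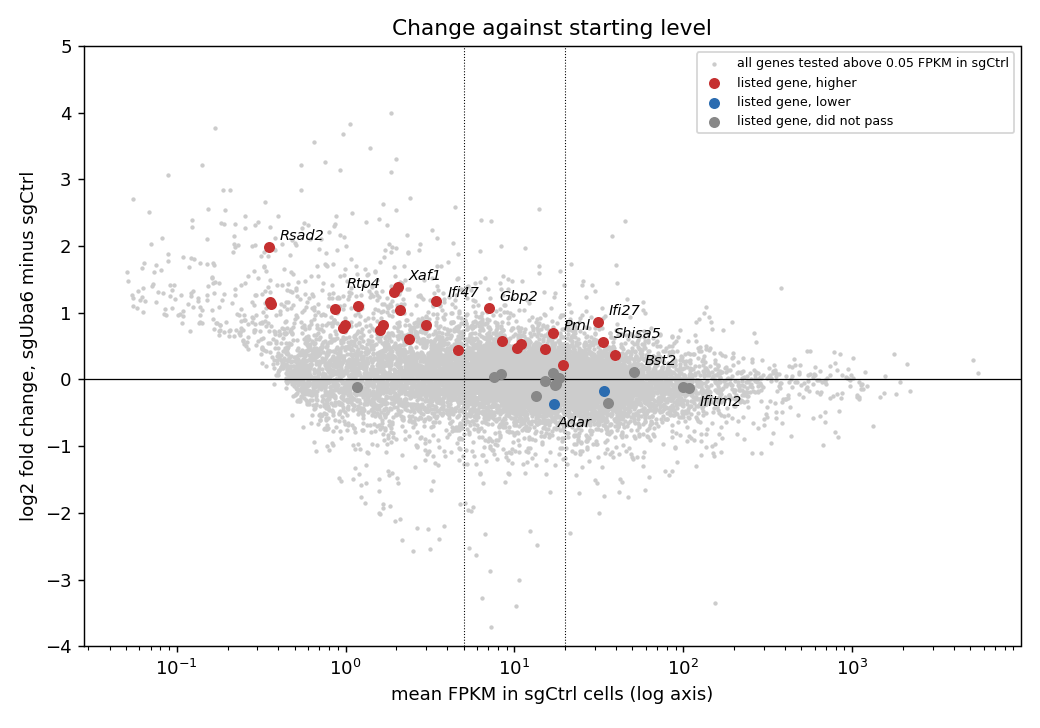
Log2 fold change (sgUba6 minus sgCtrl) against the mean FPKM in sgCtrl cells (log axis) for the genes tested; large points are the listed genes (red higher, blue lower, grey not called), small grey points all genes above 0.05 FPKM in sgCtrl cells, and dotted lines mark 5 and 20 FPKM. All but 1 of the 17 listed genes left of 5 FPKM are red, and 4 of the 8 right of 20 FPKM are grey.

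In summed FPKM the set stood at 694.9, 686.3 and 665.0 in the sgCtrl libraries and at 817.1, 761.3 and 767.3 in the sgUba6 libraries. The sums did not overlap. Those of *Ifitm2*, *Ifitm3*, *Bst2* and *Ifi27* alone, which are among the 6 most abundant genes, did overlap. They were 297.9, 301.3 and 270.4 FPKM in sgCtrl and 323.9, 289.3 and 295.2 FPKM in sgUba6 libraries. *Ifi203* and *Shisa5*, also among the 6 most abundant genes, were left out, so these sums do not stand for all 6. Both were called higher, and their sgUba6 values lay above every sgCtrl value. The median deviation of the 41 genes from their group means lay between -0.03 and 0.05 on the log2 scale in each of the 6 libraries.

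Members within 1 Mb of each other on the genome formed 9 groups. In 4 of these every gene was higher. On chromosome 3, *Gbp7*, *Gbp3* and *Gbp2* were higher; on chromosome 11, *Irgm1*, *Tgtp1* and *Ifi47* in one interval and *Igtp* and *Irgm2* in another were higher; and on chromosome 12, *Rsad2* and *Cmpk2* were higher. The *Ifitm* genes on chromosome 7, of which *Ifitm1* was not tested, and *Sp110* and *Sp100* on chromosome 1 held none that was called. The *Mx* genes on chromosome 16 were not tested. *Ifi30* and *Bst2* on chromosome 8 differed, the former being called lower. The *Ifit* genes on chromosome 19 also differed, with *Ifit1* and *Ifit3* higher, *Ifit2* not called and *Ifit3b* not tested. Counted without the 10 genes that share at least 50% of a transcript with a gene elsewhere, 23 of 35 tested genes were higher. Over all genes tested 24.7% were higher, and genes with such copies were not taken out of that share. The 23 include *Rsad2* and *Ifi44*, which passed the filter through their sgUba6 libraries alone.

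In the RefSeq windows from 250 bases before to 50 after the start, 40 of the 49 listed genes, *Slfn5* among them, were matched by symbol. *Gbp9*, *Gvin1*, *Ifi27*, *Iigp1*, *Ly6e*, *Mx1*, *Mx2*, *Rtp4* and *Tor3a* were not. The ISRE core was found for 19 of the 40 (47.5%), against 1079 of 27025 genes (3.99%), and GAS for 12 (30.0%), against 2582 genes (9.55%). A gene with several starts had several windows and counted when any of them held a match.
Of the 17 tested genes with an ISRE core, 13 were higher (76.5%) and the median log2 fold change was 0.60. Of the 19 without, 10 were higher (52.6%), with a median of 0.45. Over all tested genes, 33.3% of 333 with the core and 25.5% of 8756 without it were higher. For GAS, 6 of the 12 tested genes with a match were higher (median 0.28) and 17 of the 24 without (median 0.56), where 25.2% of 751 and 25.8% of 8338 genes were higher over all tested. The 4 genes with the core that were not called higher were *Ifitm2*, *Ifitm3*, *Bst2* and *Eif2ak2*, all of them at 16.3 FPKM or more in every library. *Shisa5*, *Ifi203* and *Tdrd7* also had the core and such levels, and they were called higher. Matches are letters in these windows and say nothing of whether a factor was bound.
The *Rsad2*, *Ifit1*, *Ifit3* and GTPase sequences printed above belong to genes that were higher, and the *Bst2* sequence, with 2 ISRE cores, to a gene that was not called.

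**Figure D4:**
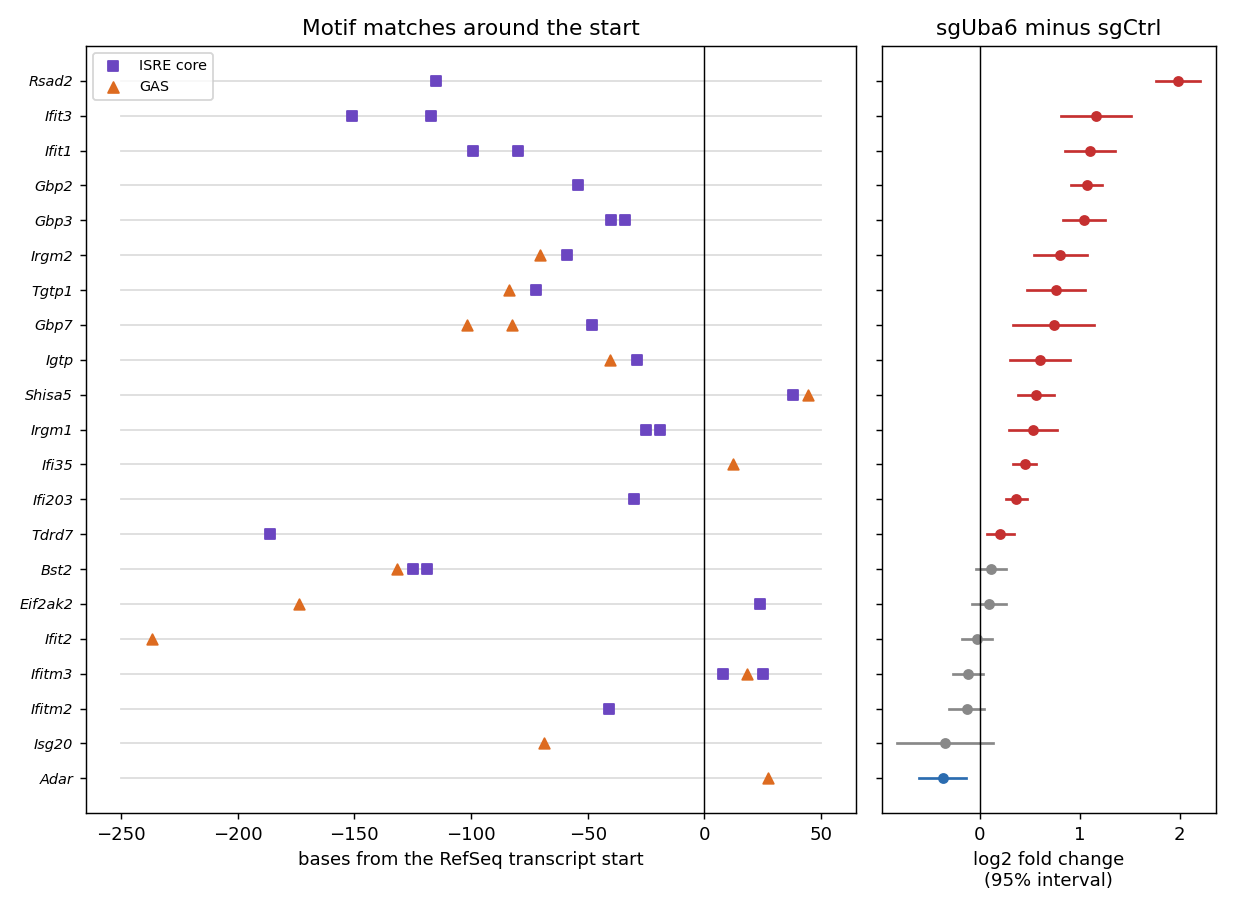
Left, centres of ISRE core matches (purple squares) and GAS matches (orange triangles) in bases from the RefSeq transcript start for the tested genes that have either; right, their log2 fold changes with 95% intervals from limma (red higher, blue lower, grey not called). Genes are ordered by fold change from *Rsad2* at 1.98 to *Adar* at -0.37, and ISRE core matches occur in called and uncalled genes.

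The interferon pathway around the set was read from lists of genes written with it, and their counts are to be read against 24.7% higher and 22.7% lower over all genes tested. Of 18 genes of interferon signalling in the table, all were tested, 10 were higher and 0 lower in limma (12 and 0 at an unadjusted p under 0.05), and the median log2 fold change was 0.29. *Stat2* was at 4.74, 4.11 and 5.05 FPKM in sgCtrl and at 8.25, 8.14 and 8.39 FPKM in sgUba6 cells, a change of 0.78 (adjusted p = 0.000372). *Irf7* rose by 0.99 (adjusted p = 0.00136), from a mean of 1.46 to 3.36 FPKM.
*Irf9* did not pass the test (0.20, adjusted p = 0.269), but did without the second sgUba6 library (0.35, adjusted p = 0.0370). *Ifnb1* was not analysed here. Of 32 other interferon-stimulated genes tested, 29 were higher and 0 lower in limma (also 29 and 0 at an unadjusted p under 0.05), with a median of 0.67. Their list holds genes of the classes left out of the set and also others, such as *Psmb8*, *Psmb9*, *Tap1*, *Cxcl10* and *Ccl5*. Of 25 tested relatives from the gene families of the set, such as other torsins, Schlafens and Shisa proteins, 10 were higher and 7 lower, with a median of -0.03. Among these *Slfn10-ps* changed by 1.95, *Ifi205* by 1.496 and *Shisa2* by 1.39, while *Slfn8* changed by -0.41.

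Markers of other cells were read beside these results. Of 18 leukocyte markers 6 were in the table and 3 were tested. All 3 (*Cd68*, *Csf1r* and *Cd14*) were higher in sgUba6 cells, against 24.7% of all genes tested. *Csf1r* passed the filter through its sgUba6 libraries alone and therefore had to differ. The *Cd14* call was lost without sgCtrl library 2 or 3 or sgUba6 library 1 or 3. The leukocyte list summed to between 18.8 and 20.3 FPKM in sgCtrl and between 29.9 and 34.1 FPKM in sgUba6 libraries. The leukocyte markers too low to be tested, *Ptprc*, *Lyz2* and *Cd79a*, did not exceed 0.0195, 0.0427 and 0.118 FPKM in any library. Of 6 fibroblast markers, 4 were in the table, and *Pdgfra* and *Col1a1* were tested and higher, against the same 24.7%. *Col1a1* passed the filter through its sgUba6 libraries alone and therefore had to differ. The fibroblast list summed to between 2.96 and 3.19 FPKM in sgCtrl and between 5.40 and 6.70 FPKM in sgUba6 libraries. *Dcn* was at or below 0.0317 FPKM. Of 5 endothelial markers, *Pecam1* was in the table, at 0.147 to 0.214 FPKM in sgCtrl and 0.00222 to 0.142 FPKM in sgUba6 libraries. The part of these markers in the results on antiviral genes was not tested, and in bulk RNA a change in the number of expressing cells and a change in RNA per cell cannot be told apart.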

How the data were processed

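The files hold 6 RNA-seq libraries of 4T1 cells, 3 sgCtrl and 3 sgUba6. The deposited FPKM were made by the authors, gene by gene and library by library. Their methods name Cutadapt, HISAT2 with GRCm38, StringTie and Cuffdiff, and a directional kit. The submitters' processing notes name mm10 with HISAT2 and RSEM after CASAVA 1.8, FastQC and Trimmomatic, and the labels the TruSeq kit. Which of these made the table, how reads of near-identical genes were divided and whether strand was used are not given in the sources used here. The deposited fold change (a ratio) and the deposited p-values and q-values are the authors' own comparison and were not used.

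A gene was tested if 3 or more of the 6 libraries reached 0.5 FPKM, which held for 12190 of 19255. log2(FPKM + 0.5) was modelled by group in limma 3.58.1 (R 4.3.3, trended eBayes). Adjustment was by Benjamini-Hochberg across all tested genes, at a threshold of 0.05. An exact permutation test (two-sided) of 1 gene cannot go below 0.1 with 3 libraries per group, so the p-values rest on the limma model. The script was tested on simulated data. The members, the lists and the tests were chosen with earlier results of these data known, so no list was tested, and counts and medians stand beside those of all genes.

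Values in every library are given for genes called with at least a 2-fold change, genes called lower, the 6 most abundant, those whose call or direction changed when 1 library was left out, and untested genes over 0.1 FPKM in any library. *Pml* was added after its values were seen. At most 6 called genes of each list are named; *Slfn8* was chosen after its values were seen, and 1 gene that the rule names is not reported here.

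All 19255 gene identifiers were in the GENCODE annotation of GRCm38, and 19248 had the same start and end. Transcripts were searched for copies with blastn 2.17.0 at 95% identity and at least 200 bases. Promoters are those of RefSeq on GRCm38.p6. Alternatives were an added constant of 0.1 or 1 FPKM, a filter of 1 FPKM or none, scaling by median of ratios, equal FPKM sums or quantiles, limma with no trend, a replicate block, leaving out each library and, for motifs, the 150 bases before the start. Python 3.11.15 with matplotlib 3.10.9 drew the figures.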

Additional observations from a re-analysis of the deposited data

How the results depend on the processing

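Over the 15 alternatives, 25 to 27 of the genes were higher, their median log2 fold change lay between 0.45 and 0.56, and *Uba6* changed by -0.52 to -0.45. Of the 26 higher genes, 25 were called under every alternative that gave a value, the exception being *Tdrd7*. The count of lower genes was 1 with equal FPKM sums, with quantile normalization and with limma without a trend, and 0 to 2 with a library left out; it was 0 without the first sgCtrl library, where both *Adar* and *Ifi30* were lost. *Ifi30* had adjusted p-values of 0.0539, 0.0639 and 0.0518 under those 3 settings, and *Bst2* was called with quantile normalization (adjusted p = 0.0495). Some small changes turned direction without passing the test. *Ifit2* was 0.0012 with equal FPKM sums, and *Sp100* -0.011 with quantile normalization. With a library left out, *Ifit2* ranged from -0.072 to 0.024, *Ly6e* from -0.19 to 0.046, *Sp100* from -0.032 to 0.094, *Sp110* from -0.24 to 0.0058, *Nmi* from -0.060 to 0.073 and *Lgals3bp* from -0.17 to 0.036. The cause was not tested. GAS was found for 6 members and the ISRE core for 13 in the 150 bases before the start.

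The correlation of deviations from the group means between same-numbered libraries was 0.02, -0.06 and -0.02. Libraries of unlike number were not compared, so whether the libraries were prepared in pairs is not known. With the replicate number as a block, 25 genes were higher and 2 lower, and *Tdrd7* was not called (adjusted p = 0.0614). Depth is unknown, so values of the 7 untested genes carry no precision.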
